A study of Mus musculus with 12 samples.

Results

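The 8 genes described here mark early B-lymphoid progenitors: Vpreb1, Vpreb3, Igll1, Rag1, Rag2, Dntt, Il7r and Cd93. They were taken by gene symbol from the 24310 features of each library, with no filter on expression, to ask whether the B-lineage signal of these libraries includes pro-B and pre-B cells. RNA was sequenced from spleens of C57BL/6 mice that had been engrafted with CMM cells, a GFP-marked transplantable line of acute myeloid leukaemia, which the series title places with inv(16). The mice received PBS, the scrambled oligonucleotide CpG-scrODN or the STAT3 decoy CpG-STAT3dODN by intravenous injection, 3 times on alternate days, starting when about 1% of blood cells were GFP positive. Spleen cells were taken 1 day after the last dose and enriched for c-Kit by positive selection. The design text adds sorting for GFP, which the extraction protocol does not list, so what share of host spleen cells remained is not known. There were 4 libraries labelled CpG-STAT3dODN, 4 labelled CpG-scrODN and 4 labelled PBS.

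The group word in every column header differed from the label. The header word was SCR for the label CpG-STAT3dODN, PBS for the label CpG-scrODN and DEC for the label PBS. All groups below are labelled groups, and no difference is assigned to a treatment. Levels are in RPKM, which counts reads relative to transcript length and to the mapped reads of the library. Estimated depth was 31500000 to 36300000 reads per library. Kit, the receptor used for the enrichment, was at 25.7 to 51.1 RPKM in the libraries labelled CpG-STAT3dODN, 28.3 to 40.5 RPKM for CpG-scrODN and 10.5 to 37.8 RPKM for PBS. The granule enzyme gene Mpo, a myeloid marker chosen after its values were seen, was at 29.6 to 84 RPKM for CpG-STAT3dODN, 17.2 to 30 RPKM for CpG-scrODN and 91.6 to 119 RPKM for PBS, so the libraries labelled PBS lay above all others, as they did for the summed level of the mature B-cell markers. Its part in the results was not tested. Replicate 4 labelled CpG-STAT3dODN and replicate 4 labelled PBS stood apart, with Fos, an immediate-early gene, at 5.91 and 12.9 RPKM against 486 to 1156 RPKM in the other 10 libraries.

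B cells arise in stages. A pro-B cell rearranges its heavy-chain gene with the RAG1 and RAG2 recombinase, TdT (Dntt) adds bases at the joints, and IL-7 receptor signals sustain the cell. A pre-B cell then tests its new heavy chain against a surrogate light chain made of VpreB and lambda5 (Igll1). In adult mice this takes place mainly in bone marrow, while the spleen receives transitional B cells and holds mature ones. The markers differ in how closely they are tied to the early stages: Rag1, Rag2, Dntt and Il7r are also used by developing T cells, Il7r also by mature T cells, and Cd93 also marks transitional B cells, some myeloid cells and endothelium.

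Across all 12 libraries the genes most tied to the pro-B and pre-B stages were at or near 0, whereas the genes of the mature B-cell receptor were not. The B-lineage signal was highest in the libraries labelled PBS. There Cd79a, which encodes a signalling chain of the B-cell receptor, was at 66.4, 45, 47.6 and 187 RPKM in replicates 1 to 4. In the same libraries Rag1 and Igll1 were above 0 in replicate 4 alone. Vpreb3 was the 1 early gene of the 8 that passed the test in any comparison. It was lower in the libraries labelled CpG-scrODN than in those labelled PBS.

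**Figure D1:**
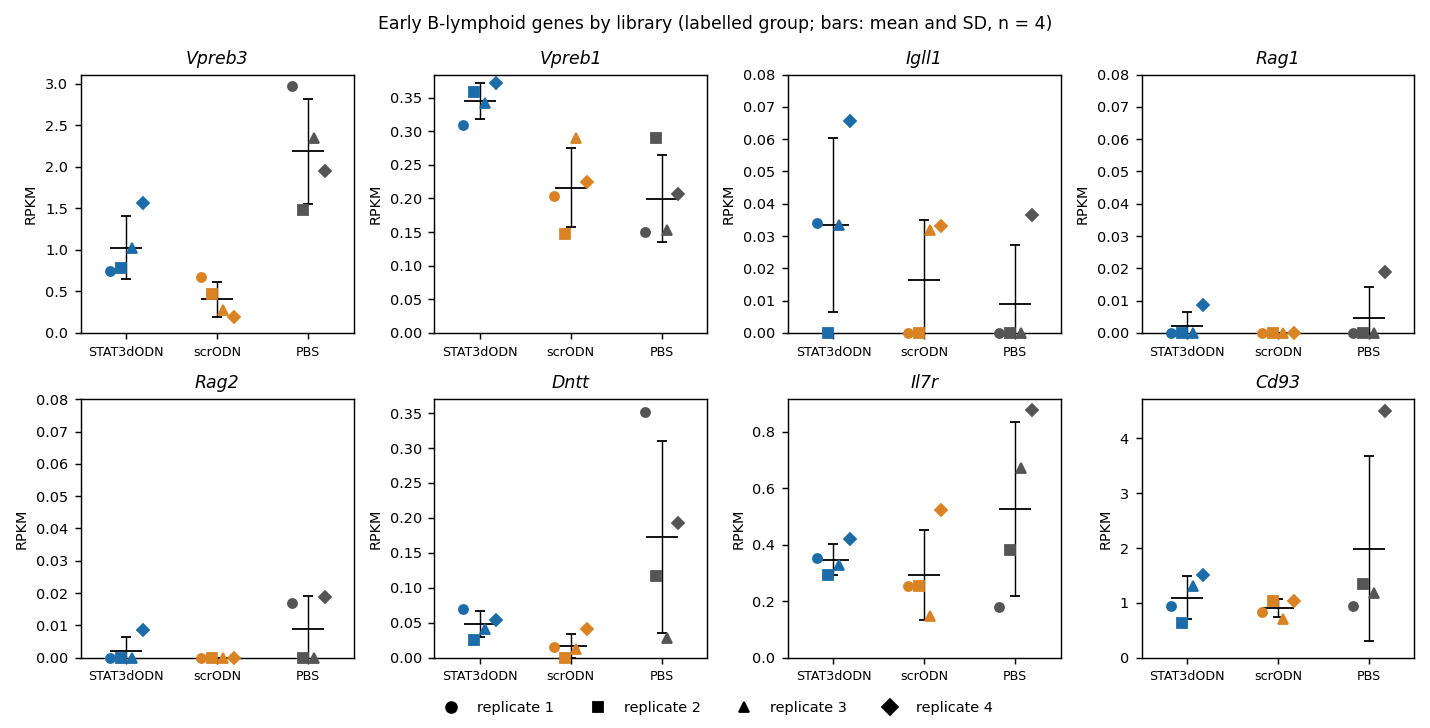
RPKM of each early B-lymphoid gene (y axis, linear, a separate scale per panel) in the 12 libraries by labelled group (x axis), with the mean and SD of 4 libraries. All 4 libraries labelled PBS lie above all 4 labelled CpG-scrODN for Vpreb3, while Rag1, Rag2 and Igll1 stay below 0.07 RPKM in every library.

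Vpreb1, Igll1 and Vpreb3 encode proteins of the surrogate light chain family. Vpreb1 lies at chromosome 16, 16868401 to 16869255 (GRCm38, which mm10 denotes, as all positions here), close to Igll1 at chromosome 16, 16860671 to 16863985. Vpreb3 lies at chromosome 10, 75943024 to 75949657, and its protein binds heavy chains inside the cell rather than forming the surface receptor. In human tissue Vpreb3 is also known from germinal centre B cells, beyond the precursor stage.

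Vpreb3 was at 0.74, 0.777, 1.02 and 1.57 RPKM in replicates 1 to 4 labelled CpG-STAT3dODN. It was at 0.675, 0.467, 0.277 and 0.192 RPKM in those labelled CpG-scrODN. In those labelled PBS it was at 2.97, 1.48, 2.35 and 1.94 RPKM. The libraries labelled CpG-scrODN were the lowest and did not overlap either other group, while replicate 4 labelled CpG-STAT3dODN overlapped the lowest library labelled PBS. Its annotated transcripts of 625 and 729 bases put the values at about 4 to 16 reads per library labelled CpG-scrODN and about 33 to 75 reads per library labelled PBS.

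Against the libraries labelled PBS, Vpreb3 in those labelled CpG-scrODN differed by -1.17 ± 0.17 in log2(RPKM + 1) (SE, 95% interval -1.56 to -0.79, limma adjusted p = 0.00464). The mean was 0.403 ± 0.215 RPKM in the libraries labelled CpG-scrODN and 2.19 ± 0.635 RPKM in those labelled PBS (SD, n = 4 each), which is 5.43-fold lower as a ratio of means. The exact permutation p was 0.0286, two-sided, the smallest that 4 against 4 libraries can give. It was 1 of the 8 genes that passed there, where limma called 3.39% of all 19308 features tested, 3.29% as lower and 0.0984% as higher. With quantile normalization 71 features were called as higher and 392 as lower, in place of 19 and 636. It was also the single early gene with groups that did not overlap, against 12.1% of all features, 9.36% as lower and 2.73% as higher. The scale understates changes of low genes, and the pseudocount of 0.1 gave -2.24.

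In the libraries labelled CpG-STAT3dODN, Vpreb3 averaged 1.03 ± 0.382 RPKM (SD, n = 4) and did not pass against those labelled PBS. The difference was -0.65 (95% interval -1.03 to -0.26, limma adjusted p = 0.13, exact permutation p = 0.0571). For CpG-STAT3dODN against CpG-scrODN it was 0.52 (95% interval 0.14 to 0.91, limma adjusted p = 0.974, exact permutation p = 0.0286). The order of the group means was therefore CpG-scrODN, CpG-STAT3dODN, PBS from low to high, with CpG-STAT3dODN not separated from either neighbour after adjustment.

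Vpreb1 followed another order. It was at 0.309, 0.358, 0.342 and 0.372 RPKM in the libraries labelled CpG-STAT3dODN. It was at 0.204, 0.147, 0.29 and 0.225 RPKM in those labelled CpG-scrODN. In those labelled PBS it was at 0.15, 0.289, 0.154 and 0.206 RPKM. The libraries labelled CpG-STAT3dODN lay above all 8 others, and the other groups overlapped.

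These Vpreb1 values stand for 8 to 10 reads per library labelled CpG-STAT3dODN and for 4 to 8 reads per library of each other group. Summed over a group they were 37 reads (exact Poisson 95% interval 26.1 to 51), 23 reads (14.6 to 34.5) and 21 reads (13 to 32.1) in that order, intervals that cover counting error only and overlap. Between the libraries labelled CpG-STAT3dODN and PBS the difference was 0.17 ± 0.04 in log2(RPKM + 1) (SE, limma adjusted p = 0.105, exact permutation p = 0.0286). Against those labelled CpG-scrODN it was 0.15 ± 0.04 (SE, limma adjusted p = 0.974, exact permutation p = 0.0286). Against PBS, Vpreb1 was the single early gene with groups that did not overlap, as in 5.19% of all features, 0.668% with the libraries labelled CpG-STAT3dODN higher and 4.52% with them lower. Against CpG-scrODN, Vpreb1 and Vpreb3 did not overlap, as in 3.29% of all features, 2.46% higher and 0.829% lower. With all 12 libraries Vpreb1 did not pass limma in any comparison. Without replicate 2 labelled PBS its difference in CpG-STAT3dODN against PBS was 0.20 and passed (limma adjusted p = 0.03, over a range of 0.03 to 0.277 across 15 alternatives).

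The reads of Vpreb1 cannot be separated fully from those of its near copy Vpreb2, at chromosome 16, 17979445 to 17981274. Their annotated coding sequences of 426 bases differ at 9 positions, with an identical run of 196 bases. Vpreb2 was at or below 0.000254 RPKM in every library, and Vpreb1 came out near whole reads. How reads that match both genes were assigned is not stated in the labels or headers, so the level of Vpreb1 is uncertain by an unknown amount. The 90 coding bases with the most differences, bases 298 to 387 counted from the start codon, are shown because reads over them are among those that could tell the 2 genes apart. Capitals mark the 5 differing bases, 5′ to 3′ on the coding strand, from the GENCODE transcripts.
Vpreb1: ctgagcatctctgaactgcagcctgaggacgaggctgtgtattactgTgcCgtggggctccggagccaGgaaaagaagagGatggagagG
Vpreb2: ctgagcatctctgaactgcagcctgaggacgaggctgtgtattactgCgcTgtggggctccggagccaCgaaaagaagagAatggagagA

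Vpreb1 and Vpreb3 shared 49.3% of aligned coding positions, with no identical run over 12 bases.

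Igll1, which encodes lambda5, was at 0 in 6 of the 12 libraries and at 1 or 2 reads in the others. It was at 0.0341, 0, 0.0336 and 0.0657 RPKM in the libraries labelled CpG-STAT3dODN. It was at 0, 0, 0.0319 and 0.0331 RPKM in those labelled CpG-scrODN and at 0, 0, 0 and 0.0364 RPKM in those labelled PBS. The groups overlapped, and no fold change is given because all libraries lay under 3 reads. A count of 0 allows up to 3 reads, which for Igll1 is 0.095 to 0.108 RPKM in the 6 libraries at 0.

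The promoters of the surrogate light chain genes are shown to describe this family, of which Vpreb3 alone passed limma with all 12 libraries. They are printed together with that of Cd79a, which was lower in the libraries labelled CpG-scrODN than in those labelled PBS, as Vpreb3 was. The part of the promoters in these levels was not tested. The E proteins (E2A) and EBF1 are the known activators of this gene family in mouse B-cell precursors. Each sequence is the 250 bases before a start site in RefSeq on GRCm38.p6, 5′ to 3′ in the direction of the gene. The window of Vpreb3 lies within the gene span given above, before an inner start site. The bases before the outer start of that span were not examined. Capitals mark CAGGTG, an E2A-type E-box, and CCCNNGGG, an EBF-type palindrome, searched on both strands.
Vpreb3 (chr10:75948050-75948299, + strand): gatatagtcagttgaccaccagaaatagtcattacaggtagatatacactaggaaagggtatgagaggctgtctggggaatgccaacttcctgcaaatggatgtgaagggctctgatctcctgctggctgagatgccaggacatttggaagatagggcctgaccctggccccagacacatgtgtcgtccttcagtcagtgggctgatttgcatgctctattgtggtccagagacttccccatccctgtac
Vpreb1 (chr16:16869256-16869505, - strand): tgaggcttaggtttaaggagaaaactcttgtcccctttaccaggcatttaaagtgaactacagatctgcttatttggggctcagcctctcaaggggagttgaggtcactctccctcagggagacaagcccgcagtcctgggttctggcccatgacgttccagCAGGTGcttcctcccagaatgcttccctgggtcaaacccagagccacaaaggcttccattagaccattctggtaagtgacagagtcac
Igll1 (chr16:16863986-16864235, - strand): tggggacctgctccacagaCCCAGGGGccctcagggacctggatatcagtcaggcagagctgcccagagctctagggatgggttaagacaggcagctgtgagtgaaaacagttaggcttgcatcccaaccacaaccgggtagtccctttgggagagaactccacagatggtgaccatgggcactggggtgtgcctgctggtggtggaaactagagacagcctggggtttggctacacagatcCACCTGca
Cd79a (chr7:24897247-24897496, + strand): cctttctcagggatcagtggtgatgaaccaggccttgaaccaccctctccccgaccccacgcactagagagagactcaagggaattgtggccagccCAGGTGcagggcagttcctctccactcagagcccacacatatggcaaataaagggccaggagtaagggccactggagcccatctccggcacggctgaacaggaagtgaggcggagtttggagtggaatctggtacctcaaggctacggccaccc

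Of the 7 early genes with a window, 3 held CAGGTG: Vpreb1, Igll1 and Rag1, whose window is not shown. Cd79a held it too, and the inner window of Vpreb3 did not. Among the same 7 genes, CCCNNGGG occurred in the window of Igll1 alone. Of all 32851 promoter windows of this length, 17.2% held CAGGTG and 11.8% held CCCNNGGG. The general E-box CANNTG, of which CAGGTG is a case, was found in the windows of all 7 early genes matched in the table, and in 66.2% of all windows. Vpreb1 had 1, Vpreb3 had 5 and Igll1 had 3. These matches describe the letters of the windows.

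Rag1 and Rag2, the recombinase genes at chromosome 2, 101638252 to 101649532 and 101624712 to 101632528, were the lowest of the 8. Rag1 was at 0 in 10 of 12 libraries. The 2 libraries above 0 were replicate 4 labelled CpG-STAT3dODN, at 0.00857 RPKM or 2 reads, and replicate 4 labelled PBS, at 0.019 RPKM or 4 reads. Rag2 was at 0 in 9 libraries. It was at 0.00843 RPKM or 1 read in replicate 4 labelled CpG-STAT3dODN, and at 0.017 and 0.0187 RPKM, 2 reads each, in replicates 1 and 4 labelled PBS.

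All 4 libraries labelled CpG-scrODN were at 0 for both recombinase genes. The libraries above 0 include both libraries of low Fos, and without these Rag1 was at 0 in every library. For Rag1, a count of 0 allows up to 0.0125 to 0.0143 RPKM in the libraries at 0. In replicates 1 to 3 labelled PBS that limit is 0.0197% to 0.0282% of the Cd79a level of the same library. The limit is looser where Cd79a was lower, at 0.114% to 0.172% for CpG-STAT3dODN and 0.183% to 0.559% for CpG-scrODN. In the libraries labelled CpG-scrODN it reached 1.08% for Rag2 and 1.97% for Igll1. In replicate 4 labelled PBS, Rag1 was at 0.0101% of Cd79a.

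**Figure D2:**
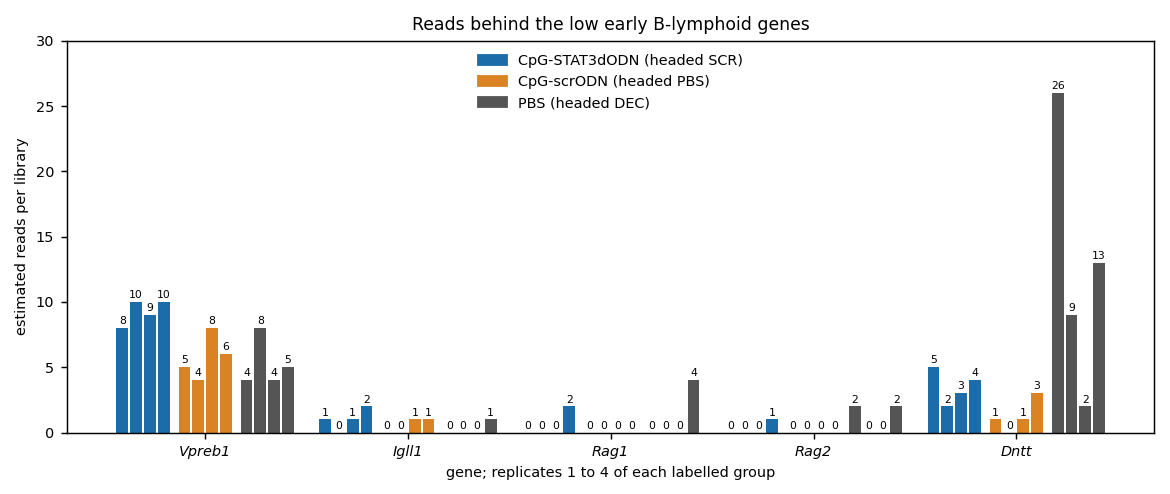
Estimated whole reads (y axis, linear from 0) behind 5 low early genes in replicates 1 to 4 of each labelled group (x axis). Rag1, Rag2 and Igll1 have 0 to 4 reads in every library, Vpreb1 has 4 to 10, and Dntt reaches 26 in the libraries labelled PBS.

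Dntt, the template-free DNA polymerase at chromosome 19, 41029275 to 41059525, was the recombination gene with the most spread. It was at 0.0697, 0.0258, 0.0411 and 0.0537 RPKM in replicates 1 to 4 labelled CpG-STAT3dODN. It was at 0.0147, 0, 0.013 and 0.0406 RPKM in those labelled CpG-scrODN. In those labelled PBS it was at 0.352, 0.117, 0.0277 and 0.193 RPKM. Of these last libraries 3 lay above all 8 others, and replicate 3 lay within their range.

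In reads, Dntt had 14 in the 4 libraries labelled CpG-STAT3dODN together, 5 in those labelled CpG-scrODN and 50 in those labelled PBS, of which 26 came from replicate 1. The difference between the libraries labelled CpG-scrODN and PBS was -0.20 ± 0.07 (SE, limma adjusted p = 0.166, exact permutation p = 0.0571) and did not pass. Without replicate 3 labelled PBS it was -0.26 and passed (limma adjusted p = 0.0288, over a range of 0.0284 to 0.326 across 15 alternatives). Against the same group, the libraries labelled CpG-STAT3dODN differed by -0.16 (95% interval -0.30 to -0.01, limma adjusted p = 0.447).

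Of 10 other genes of V(D)J recombination and end joining, such as Lig4, Xrcc5 and Prkdc, 0 passed limma in any of the 3 comparisons (1 at an unadjusted p under 0.05 in CpG-scrODN against PBS, 0 in CpG-STAT3dODN against PBS and 1 in CpG-STAT3dODN against CpG-scrODN). The median difference was -0.03 for CpG-scrODN against PBS and -0.07 for CpG-STAT3dODN against PBS, beside -0.01 and 0.00 over all features. Most of these genes repair DNA breaks in every cell type. Ptcra, which encodes the pre-T-cell receptor alpha chain and marks thymocytes, another known source of Rag and Dntt transcripts, was at 0.112 to 0.41 RPKM across the 12 libraries and did not pass in either comparison with PBS.

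Il7r encodes the IL-7 receptor alpha chain, at chromosome 15, 9506159 to 9529941. It was at 0.352, 0.291, 0.327 and 0.419 RPKM in the libraries labelled CpG-STAT3dODN. It was at 0.253, 0.254, 0.147 and 0.521 RPKM in those labelled CpG-scrODN and at 0.18, 0.381, 0.671 and 0.877 RPKM in those labelled PBS. These are about 19 to 98 reads per library. The groups overlapped, and Il7r did not pass: the difference to PBS was -0.16 (95% interval -0.45 to 0.14, limma adjusted p = 0.853) for CpG-STAT3dODN and -0.22 (95% interval -0.52 to 0.07, limma adjusted p = 0.481) for CpG-scrODN.

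T-cell genes moved in the same comparisons. Of 16 T-cell and thymocyte markers, 7 were lower than in PBS for CpG-STAT3dODN (1.47% of all features) and 8 for CpG-scrODN (3.29%). Their summed level was 4.28 to 8 RPKM in the libraries labelled CpG-STAT3dODN, 4.01 to 6.75 RPKM for CpG-scrODN and 19.6 to 63.2 RPKM for PBS, and no marker of the list was at 0 throughout a group. Cd2, which B cells also express in mice, took a large part of that sum in the libraries labelled PBS and a smaller part in the others. In that order of groups its means were 1.09 ± 0.427, 0.675 ± 0.327 and 17 ± 14.6 RPKM (SD, n = 4). The median sums were 6.53, 5.07 and 23.5 RPKM. The part of the T-cell genes in the Il7r values was not tested. Of 12 other genes of IL-7 receptor signalling, such as Il2rg, Jak3 and Stat5b, 0 passed limma in any of the 3 comparisons (1 at an unadjusted p under 0.05 in CpG-scrODN against PBS and 0 in the others), with medians of 0.14 for CpG-STAT3dODN and 0.01 for CpG-scrODN against PBS.

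Cd93, the C1q receptor-like surface protein known as AA4.1 at chromosome 2, 148436651 to 148443535, was the only other gene of the 8 that reached 1 RPKM in any library. It was at 0.949, 0.626, 1.31 and 1.5 RPKM in the libraries labelled CpG-STAT3dODN. It was at 0.834, 1.03, 0.699 and 1.04 RPKM in those labelled CpG-scrODN and at 0.939, 1.34, 1.18 and 4.5 RPKM in those labelled PBS. Replicate 4 labelled PBS lay far above the other 11 libraries, which overlapped.

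Cd93 did not pass in any comparison. It differed from the libraries labelled PBS by -0.39 (95% interval -1.04 to 0.25, limma adjusted p = 0.842) in those labelled CpG-STAT3dODN and by -0.52 (95% interval -1.16 to 0.13, limma adjusted p = 0.45) in those labelled CpG-scrODN. Leaving out both low-Fos libraries, these differences were -0.15 and -0.18. In the same 2 comparisons, where 1.47% and 3.29% of all features were called as lower, 1 and 3 of 10 monocyte and macrophage markers were lower. Their summed level was 71.3 to 142 RPKM in the libraries labelled CpG-STAT3dODN, 58.1 to 87.8 RPKM for CpG-scrODN and 134 to 207 RPKM for PBS. Of 10 endothelial markers, 1 was lower in each comparison, Pecam1, which blood cells also carry. The summed level of the endothelial list was 61.9 to 86.8, 77.3 to 91.9 and 64.1 to 87.4 RPKM in the same order of groups. Emcn was at 0 in all libraries labelled CpG-STAT3dODN and in all labelled PBS, and Cdh5, the cadherin that defines vascular endothelium, was at 0.0146 to 1.03 RPKM. The 1.03 RPKM was in replicate 4 labelled CpG-scrODN alone, and the next highest library, replicate 2 of that group, was at 0.0918 RPKM. The part of these cell types in the Cd93 values was not tested.

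**Figure D3:**
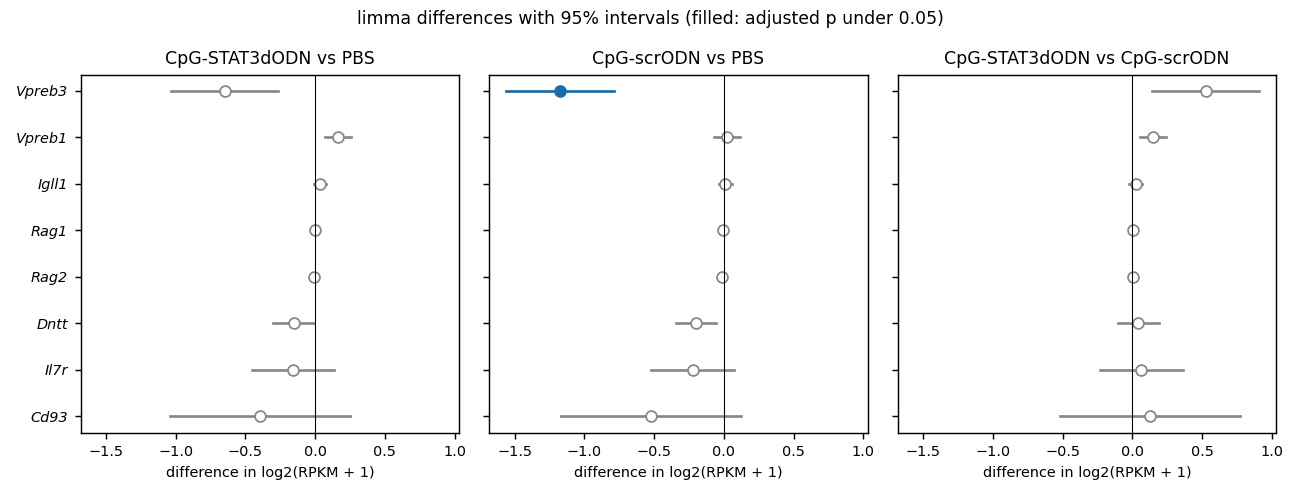
Differences in log2(RPKM + 1) of the 8 early genes (x axis, points with 95% intervals from limma) in the 3 comparisons, with filled points for an adjusted p under 0.05. Vpreb3 in CpG-scrODN against PBS, at -1.17, is the single filled point.

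Across the 8 genes, limma called 0 in CpG-STAT3dODN against PBS, where it called 1.5% of all features, 1.47% as lower and 0.0363% as higher, and 1 in CpG-scrODN against PBS. At an unadjusted p under 0.05 there were 3 and 2 of the 8, beside 1902 and 2875 of the 19308 features. The median of the 8 differences was -0.08 and -0.10, beside 0.00 and -0.01 over all features, and 6 of the 8 were negative in each. Both comparisons use the same libraries labelled PBS. In CpG-STAT3dODN against CpG-scrODN limma called 0% of all features and 0 of the 8 genes (2 at an unadjusted p under 0.05, and 532 over all features).

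The B-lineage genes around these 8 gave other counts. Of 18 measured mature B-cell markers, 11 were lower in the libraries labelled CpG-STAT3dODN and 17 in those labelled CpG-scrODN than in those labelled PBS, with medians of -2.14 and -2.64. The shares called as lower over all features, 1.47% and 3.29%, stand beside these counts and those of the lists below. Ms4a1, which encodes CD20, averaged 3.34 ± 0.832 RPKM in the libraries labelled CpG-STAT3dODN, 1.52 ± 0.616 RPKM in those labelled CpG-scrODN and 35.7 ± 12 RPKM in those labelled PBS (SD, n = 4 each). Cd22, an inhibitory receptor of mature B cells, was at 2.81 ± 1.16 RPKM in the libraries labelled CpG-STAT3dODN and 24.7 ± 5.3 RPKM in those labelled PBS. In bulk libraries, fewer cells of a type and less RNA per cell cannot be told apart.

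Signalling partners of the pre-B-cell receptor, which mature B cells also use, were among the genes that fell. Of the 10 tested genes of that list beside the 3 early ones, 1 of which is Vpreb2, 3 fell in CpG-STAT3dODN and 6 in CpG-scrODN against PBS. Blnk, the adaptor that links the receptor to its kinases, averaged 2.06 ± 0.809 RPKM in the libraries labelled CpG-STAT3dODN, 0.868 ± 0.364 RPKM in those labelled CpG-scrODN and 18.1 ± 6.59 RPKM in those labelled PBS (SD, n = 4). Its difference was -2.62 ± 0.26 for CpG-STAT3dODN (SE, limma adjusted p = 0.00104) and -3.32 ± 0.26 for CpG-scrODN (SE, limma adjusted p = 0.000186). Of 20 B-lineage transcription factors, 4 and 6 fell, among them Pax5, the factor that commits cells to the B lineage and stays on in mature B cells, with differences of -2.28 and -2.61 in log2(RPKM + 1). In the list of pro-B and pre-B stage genes, 3 of 18 fell in each comparison. These were Ly6d, Cd72 and Cd38, all of which mature B cells also express.

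Set beside the mature B-cell genes within each library, Vpreb3 stood relatively higher in both CpG groups than in the libraries labelled PBS. As a share of the Cd79a level, both per length, it was at 5.15% to 10.7% in the libraries labelled CpG-STAT3dODN, 5.93% to 9.46% for CpG-scrODN and 1.04% to 4.94% for PBS. The difference between log2(RPKM + 1) of Vpreb3 and the mean of the 18 mature B-cell genes was -1.18 ± 0.266 in the libraries labelled CpG-STAT3dODN, -1.04 ± 0.0656 in those labelled CpG-scrODN and -2.48 ± 0.537 in those labelled PBS (SD, n = 4). Against PBS this ratio was higher by 1.31 and 1.45, with an exact permutation p of 0.0286 in each, and the libraries did not overlap. Rag1, at 0 in most libraries, gave 1.95 and 2.61 with the same exact permutation p. The test therefore cannot separate a change of Vpreb3 from the lower level of the mature list. The pseudocount compresses low values, and with 0.1 the Vpreb3 differences were 1.29 and 1.05.

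These were among 24 such ratios tested over the 8 genes and 3 comparisons. For the 6 genes under 1 RPKM in every library, Vpreb1, Igll1, Rag1, Rag2, Dntt and Il7r, the ratio on this scale mostly restates the change of the mature B-cell list. Its tests are not given for these genes, except those of Rag1 above. As a share of Cd79a, Dntt overlapped between the groups, at 0.176% to 0.589% for CpG-STAT3dODN, 0% to 1.73% for CpG-scrODN and 0.0582% to 0.53% for PBS. Vpreb1, with 4 to 10 reads per library, was at 1.22% to 4.92%, 2.61% to 9.6% and 0.11% to 0.642% in the same order, lowest for PBS. Il7r was at 1.38% to 4%, 3.15% to 22.2% and 0.271% to 1.41%, with CpG-STAT3dODN overlapping PBS. Igll1, Rag1 and Rag2 had libraries at 0 in every group. All these shares also rise where Cd79a is lower. Cd93 was at 4.94% to 13.4%, 10.7% to 44.2% and 1.41% to 2.97% of Cd79a in the same order, lowest in all 4 libraries labelled PBS. Within the libraries labelled PBS, replicate 4 had the highest Cd79a level, at 187 RPKM. Vpreb3 was highest in replicate 1 there and Dntt was too, while Cd93 and Il7r were highest in replicate 4.

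**Figure D4:**
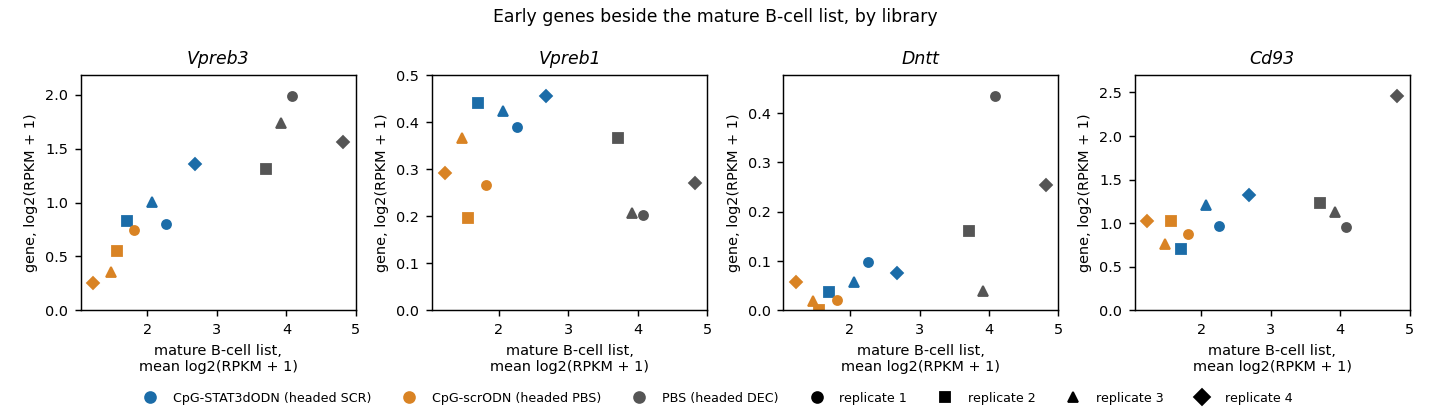
Level of Vpreb3, Vpreb1, Dntt and Cd93 (y axis, log2(RPKM + 1)) against the mean log2(RPKM + 1) of 18 mature B-cell genes (x axis) in the 12 libraries. Vpreb3 is lowest in the libraries labelled CpG-scrODN, whereas Vpreb1 is highest in those labelled CpG-STAT3dODN. The mature list has its lowest value, 1.22, in replicate 4 labelled CpG-scrODN. Replicate 1 of that group, at 1.81, lies above replicate 2 labelled CpG-STAT3dODN, at 1.7.

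Vpreb3 and Cd93 were the early genes that reached 1 RPKM in 4 or more libraries. Each was compared with the 10200 other features that also did, leaving out symbols such as those of predicted models, clones or dates. For each, the 5 features with the most similar course over the 12 libraries were taken. For Vpreb3 these were Nmral1, Fcho1, D8Ertd82e, Ugdh and Pxdc1, with Pearson correlations of 0.95, 0.94, 0.929, 0.928 and 0.925. Cd79a and Ms4a1 correlated with it at 0.909 and 0.905. For Cd93 they were Gdi2, Vcan, Ric1, Mfsd6 and F10, at 0.96, 0.957, 0.953, 0.948 and 0.944, while Cd79a stood at 0.71. These correlations describe libraries that share groups, and those of Cd93 also share replicate 4 labelled PBS.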

How the data were processed

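RPKM values are those the authors deposited, 1 file per library with 24310 features. The submitters' processing notes name mm10, TopHat 1.3.1 and Partek 6.12.0713 without the step each performed; which annotation and filters they used is not stated. Groups came from the treatment labels. Nothing says that each library is a separate mouse, so the spread behind each p-value may be technical.

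Values were analysed as log2(RPKM + 1). One limma 3.58.1 fit (R 4.3.3) with an intensity trend held the 3 groups and all 19308 features above 0 in at least 1 library. Calls were made at 0.05 after Benjamini-Hochberg adjustment of two-sided p-values. The fit was tested on simulated data with normally distributed noise. Changes were added there only to features averaging at least 1 RPKM, so the test does not cover the early genes below that level. Exact permutation tests set 4 against 4 libraries, with a smallest p of 0.0286, and were not adjusted; the limma p beside each is adjusted over all features.

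Depth and reads were estimated from the RPKM that 1 read is worth in genes with 1 GENCODE transcript, of whose low values 58.2% to 60.6% were whole within 0.05 of a read. Because the rest were not whole, no count test was made. Of 80 genes that every cell uses, 0 were at 0 in any library. Chi-square per degree of freedom between replicates was 10.6 to 295, so all 12 libraries were treated as distinct samples. In 27 features the symbol had become a date.

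The 8 genes and the lists were chosen with earlier results of these data known. Beside the 8 genes and their near copy Vpreb2, the genes named are up to 4 called members of each list with the largest change, those 5 with the highest correlation, Fos, and examples from lists with no call. Kit, Mpo, Ptcra, Cdh5 and Emcn were added after their values were seen. Alternatives were pseudocount, filter, scaling, weights, groups fitted, replicate block and leaving out libraries. Promoter sequences are from RefSeq (GRCm38.p6), and transcripts from GENCODE.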

Additional observations from a re-analysis of the deposited data

Results flagged for a closer look

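In groups of 4 libraries, 22 combinations of an early gene and a group were checked for a library that lay far from the other 3, and 5 were found. Chance gives about 1 in 20 for continuous values, a rate that does not apply to 4 of the 5, where 1 to 4 reads stand against 3 libraries at 0 and any read would be found. All 5 were in a replicate 4 library of low Fos. Rag1 was at 0.00857 RPKM in replicate 4 labelled CpG-STAT3dODN and at 0.019 RPKM in replicate 4 labelled PBS, and Rag2 was at 0.00843 RPKM in the first of these, with 0 in the other 3 libraries of each group. Igll1 was at 0.0364 RPKM in replicate 4 labelled PBS, 1 read, with 0 in the other 3. Cd93 was at 4.5 RPKM in replicate 4 labelled PBS, against 0.939 to 1.34 RPKM in replicates 1 to 3. The share of low Fos, or of any handling step, in these values was not tested.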

How the results depend on the processing

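Vpreb3 in CpG-scrODN against PBS stayed called in all 16 alternatives run, with differences of -2.24 to -1.01 and limma adjusted p from 0.00146 to 0.0223. Of 363 recomputed differences of the 8 genes, 359 kept their side of the threshold and 4 came to pass: Dntt (CpG-scrODN against PBS, without replicate 3 labelled PBS and with quality weights), Vpreb1 (CpG-STAT3dODN against PBS, 0.20 without replicate 2 labelled PBS, adjusted p = 0.03, range 0.03 to 0.277) and Vpreb3 (the same comparison, -0.79 with quality weights, adjusted p = 0.0263, range 0.0263 to 0.357). The cause was not tested. With the filter of RPKM 1 in 4 libraries, 6 of the 8 genes have no value.

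In CpG-scrODN against PBS, 655 features were called over the series, 1047 without both libraries of low Fos, 1904 with quality weights, 398 with these 2 groups alone and 316 to 752 on leaving out 1 library. Of the 8 genes, 2 were called with quality weights and 1 to 2 on leaving out 1 library. The 19 higher and 636 lower became 71 and 392 with quantile normalization. In CpG-STAT3dODN against PBS, 290 features became 190 with quantile normalization, 508, 813 and 73 under the same 3 settings, and 134 to 379 on leaving out 1 library. Of the 8 genes, 1 was called with quality weights and 0 to 1 on leaving out 1 library. In CpG-STAT3dODN against CpG-scrODN the 0 became 1 with the replicate block and 32 with quality weights, and was 0 on leaving out any 1 library.

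The replicate block gave 591, 200 and 1 calls and changed no call of the 8 genes. Replicate numbers were not shown to pair libraries: the deviations of same-numbered libraries correlated at -0.341 to 0.817, and 5 of 12 pairs were over 0.1. Without both libraries of low Fos, the ratio of Vpreb3 to the mature B-cell list was higher by 1.1 in CpG-STAT3dODN against PBS, where 3 against 3 libraries cannot give an exact permutation p below 0.1, and by 1.19 in CpG-scrODN against PBS (exact permutation p = 0.0286, 4 against 3 libraries). Rag1 gave the same exact permutation p in the latter, so the limit stated for this ratio holds here too. With 4 to 10 reads per library for Vpreb1 and 0 to 4 for Igll1, Rag1 and Rag2, small changes of these genes were not detectable at this depth.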
